A study of Mus musculus with 10 samples.

Results

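The 10 genes described here write and read methylation of lysine 9 on histone H3 (H3K9) or bring the writers to DNA: Setdb1, Suv39h1, Suv39h2, Ehmt1 and Ehmt2, Trim28 and Zfp57, and Cbx1, Cbx3 and Cbx5. They were chosen by name, as every non-control probe whose gene name on the array was a gene of this set, and all 10 were found among 23811 genes tested. The arrays carried 17 probes for them, of which 16 were well above background in at least 1 group. The second Trim28 probe, on the strand opposite to the gene's other probe, was not above background on any array and is not used further.

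Expression was measured on 10 one-colour arrays of mouse embryonic stem (ES) cells, grown without feeder cells in serum and leukaemia inhibitory factor. The series asks how demethylation brought about by extra PRDM14 changes gene expression. J1 is the wild-type line, PRDM14 is line JP-23, which is wild-type and stably expresses Prdm14, and PRDM14_DNMT3B is line JP-23+3b-3, which stably expresses Dnmt3b1 as well. Dnmt3b_KO (line 8bb) is Dnmt3b-/-, Dnmt1_KO (line 36) is Dnmt1-/-, and TKO (line 19-1) is Dnmt1-/-Dnmt3a-/-Dnmt3b-/-. J1, PRDM14, PRDM14_DNMT3B and Dnmt3b_KO have 2 arrays each, and Dnmt1_KO and TKO have 1 array each. Every group is a single line, so a difference between genotypes cannot be told apart from a difference between lines. No label says that replicate arrays came from different cultures. The p-values then reflect array-to-array spread alone, some or all of which may be technical. What drives the transgenes, the labels do not state.

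H3K9 methylation marks heterochromatin. SUV39H1 and SUV39H2 place the trimethyl mark at pericentromeric repeats, EHMT1 (GLP) and EHMT2 (G9a) together place mono- and dimethyl marks on genes, and SETDB1 is brought by the corepressor TRIM28 (KAP1) to endogenous retroviruses and imprinted loci. ZFP57 is the zinc finger protein that leads TRIM28 to methylated imprinting control regions in ES cells, and the products of Cbx5, Cbx1 and Cbx3 (HP1 alpha, beta and gamma) bind the methylated lysine.

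Levels below are log2 intensity minus the 75th percentile of the array, differences are in log2 units with their SE, and a gene is called at a limma adjusted p under 0.05 over all genes tested. A level is compared only between arrays for the same probe, never between probes. The targeted genes were checked first. Dnmt1 stood at 1.63 and 1.30 in J1 against -2.67 in Dnmt1_KO and -3.15 in TKO. Dnmt3b stood at 7.61 and 7.57 in J1 against 1.63 and 1.70 in Dnmt3b_KO and 2.00 in TKO. The Prdm14 probe was at -0.07 and 0.09 in J1 but at -4.31 and -4.02 in the arrays labelled PRDM14, and Dnmt3b was at 4.10 and 4.17 in those labelled PRDM14_DNMT3B. The sources used here do not say if these probes pick up transgene RNA, so overexpression was not measured and the group names are those of the labels. Replicate arrays correlated at r of 0.9951 to 0.9977 across genes, which are not independent replicates.

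All 8 ES cell markers (Pou5f1, Nanog, Sox2 and others) were well above background in every group. The summed linear level of these markers, in units of the array's 75th percentile, was 390 to 412 in J1, 574 to 586 in PRDM14, 521 to 528 in PRDM14_DNMT3B, 418 to 426 in Dnmt3b_KO, 275 in Dnmt1_KO and 397 in TKO. Of 8 fibroblast markers, Lum and Postn were not above background in any group, and the sum ran from 1.31 in PRDM14 to 9.62 in Dnmt3b_KO. The sum of 7 primitive endoderm markers ran from 0.481 in PRDM14 to 2.71 in TKO. The sum of 7 trophoblast markers ran from 7.32 in PRDM14 to 249 in Dnmt1_KO, with Elf5 not above background in any group. In bulk samples, fewer cells of a type and less RNA per cell cannot be told apart.

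**Figure D1:**
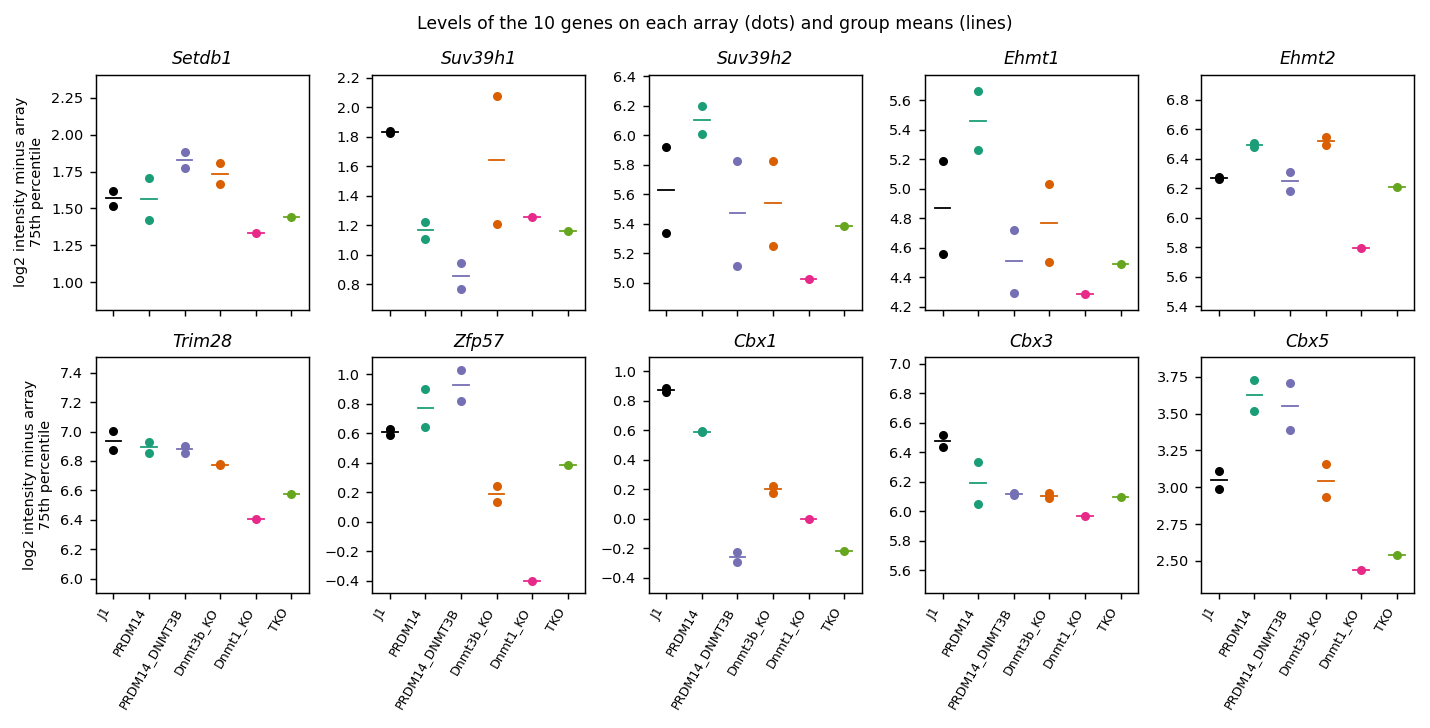
Level of each of the 10 genes (y axis, log2 intensity minus the array's 75th percentile) in the 6 groups (x axis). Dots are arrays and lines are group means, each panel spans the same range of log2 units around its own centre, and Cbx1 shows J1 at the top (0.88 and 0.86) and every other array below it.

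Of the 10 genes only Cbx1, by its brighter probe, was called in every comparison. The share of the 10 that was called lay under that of all genes in 6 comparisons and above it in Dnmt1_KO against J1. In PRDM14 against J1, 2 of 10 were called, Cbx5 higher and Cbx1 lower, where 39.6% of all genes were called (20.8% higher and 18.8% lower). In PRDM14_DNMT3B against J1, 3 of 10 were called, Cbx5 higher and Cbx1 and Suv39h1 lower, against 39.2% of all genes (19.5% higher, 19.7% lower). In Dnmt3b_KO against J1 the call was Cbx1, lower, 1 of 10 against 20.9% of all genes (10.8% higher, 10.1% lower). In TKO against J1 it was again Cbx1 alone, lower, against 28.4% of all genes (13.9% higher, 14.5% lower).

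Dnmt1_KO, a single array, had the lowest group mean of Trim28, Ehmt2 and Zfp57 by more than their widest replicate gap. It was also lowest for Setdb1, Ehmt1, Suv39h2, Cbx3 and Cbx5, but within that gap. How often Dnmt1_KO was lowest over all genes was not computed. There 5 of 10 were called against J1, all lower (Trim28, Ehmt2, Zfp57, Cbx1 and Cbx3), where 28.1% of all genes were called, 13.1% higher and 15% lower. The median difference of the 10 genes was -0.58 beside -0.14 for all genes, and all 10 values were below 0. The share of all genes below 0 was not computed. All 10 genes were above background on every array, and over all genes with such a probe the median was -0.197. In TKO all 10 values were below 0 as well, and the median was -0.37 beside -0.07, or -0.11 over genes above background on every array. The median was -0.13 beside -0.10 in Dnmt3b_KO, -0.11 beside -0.07 in PRDM14_DNMT3B and 0.08 beside -0.03 in PRDM14. These comparisons share the 2 J1 arrays. With quantile normalization 2 of the 5 calls in Dnmt1_KO, Cbx1 and Zfp57, were left, and leaving out J1 replicate 1 or 2 left 2 or 3. On the same array 5 of the 8 ES cell markers were called lower than in J1 and their sum was 275 beside 390 to 412. Of 6 tested trophoblast markers 4 were called higher and Cdx2 lower, with a sum of 249 beside 127 to 135 in J1. Of 6 tested fibroblast markers, the collagen genes Col1a1 and Col1a2 rose by 2.47 and 3.24 and Pdgfrb fell by 0.82. In TKO the sums were 397 for ES cell, 46.6 for trophoblast and 7.35 for fibroblast markers, the last beside 3.72 to 4.09 in J1. The part of these markers in the results of Dnmt1_KO and TKO was not tested.

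The comparisons that do not use J1 had 1 and 3 calls, each by the brighter of the gene's 2 probes. The dimmer Cbx1 probe was called the other way in both, and the dimmer Zfp57 probe in PRDM14 against Dnmt3b_KO. In PRDM14_DNMT3B against PRDM14, which asks what DNMT3B1 adds, Cbx1 was lower, 1 of 10 against 20.7% of all genes (9.81% higher, 10.9% lower). In PRDM14 against Dnmt3b_KO, Cbx1, Cbx5 and Zfp57 were higher, 3 of 10 against 37.2% of all genes (21.5% higher, 15.7% lower). Without PRDM14 replicate 1 none of these 3 was called, without PRDM14 replicate 2 Zfp57 was, and without Dnmt3b_KO replicate 1 Cbx1 was. Without Dnmt3b_KO replicate 2 none of the 3 was called (adjusted p of 0.0669 to 0.14), and Suv39h1 was called lower (-0.91, adjusted p = 0.00991). Each PRDM14 array was the only one on its slide, and in comparisons with PRDM14 the slide cannot be told apart from the group.

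**Figure D2:**
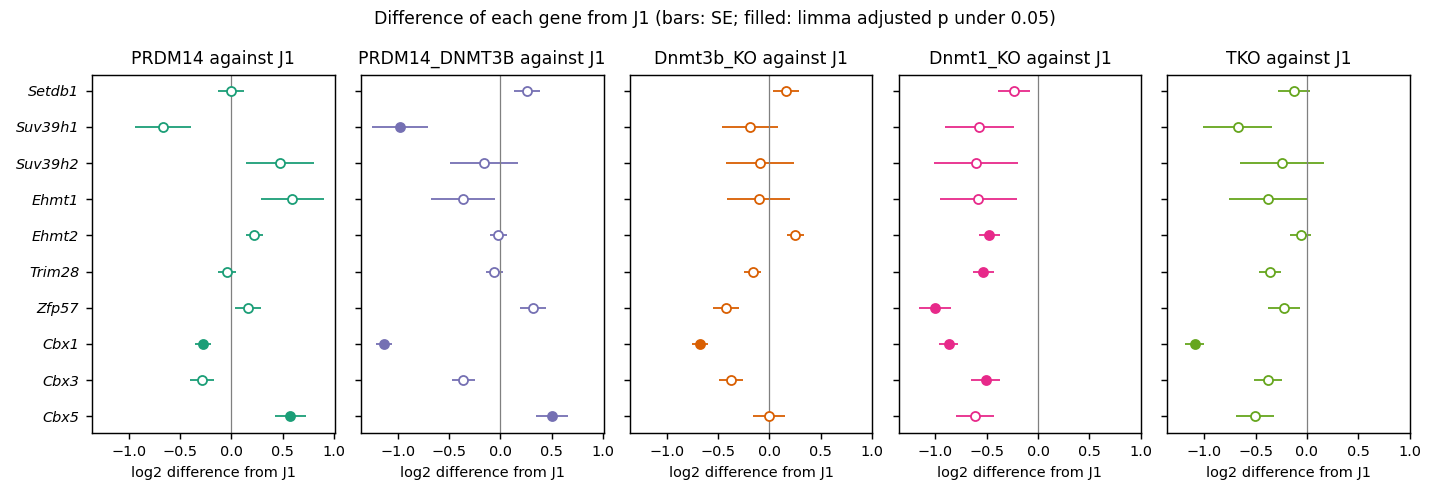
Log2 difference of each gene from J1 (x axis) in the 5 other groups (panels), with SE as bars and filled points at a limma adjusted p under 0.05. Cbx1 is filled and left of 0 in all 5 panels, and in Dnmt1_KO and in TKO all 10 points lie left of 0.

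Of the 2 enzymes of pericentromeric trimethylation, Suv39h1 was lower in PRDM14_DNMT3B, and Suv39h2 was called in no comparison. The Suv39h1 probe lies on chromosome X (mm9, 7647715 to 7647774, minus strand). Suv39h1 was at 1.82 and 1.84 in J1, 1.11 and 1.22 in PRDM14, 0.94 and 0.77 in PRDM14_DNMT3B, 2.08 and 1.21 in Dnmt3b_KO, 1.26 in Dnmt1_KO and 1.16 in TKO. Both J1 arrays lay above every array other than Dnmt3b_KO replicate 1, and the 2 Dnmt3b_KO arrays differed by 0.87, the widest gap between replicates of any of the 10 genes.

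Suv39h1 fell by 0.98 in PRDM14_DNMT3B (SE 0.27, 1.97-fold, limma adjusted p = 0.0358), with values of -0.88 within slide 1 and -1.08 within slide 2. With slide as a block the difference was the same and the adjusted p 0.0584. The call was also lost without either array of J1, PRDM14 or PRDM14_DNMT3B (adjusted p of 0.0673 to 0.14). In PRDM14 the difference was -0.67 (adjusted p = 0.109), and leaving out either Dnmt3b_KO array, which does not enter that difference but sets the spread, gave an adjusted p of 0.00944. Genes of chromosome X had a median difference that lay -0.13 from that of the autosomes in PRDM14 and -0.07 in PRDM14_DNMT3B against J1, and the part of this in the Suv39h1 values was not tested.

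Suv39h2 was measured by 2 probes on chromosome 2 (mm9, minus strand), the brighter at 3373186 to 3373245 and the dimmer at 3375594 to 3375653. The brighter probe was at 5.34 and 5.92 in J1, 6.01 and 6.20 in PRDM14, 5.11 and 5.83 in PRDM14_DNMT3B, 5.25 and 5.83 in Dnmt3b_KO, 5.03 in Dnmt1_KO and 5.38 in TKO. Replicate 1 lay below replicate 2 in all 4 groups with replicates, with differences of -0.19 to -0.71, and J1, PRDM14_DNMT3B and Dnmt3b_KO overlapped. No step between neighbouring group means exceeded the widest replicate gap, for Suv39h2 as for Suv39h1. No label pairs arrays by replicate number, and the PRDM14 arrays shared no slide with other groups. With the replicate number as a block, the brighter probe passed in both comparisons without J1. It was lower in PRDM14_DNMT3B than in PRDM14 (-0.63, adjusted p = 0.0344) and higher in PRDM14 than in Dnmt3b_KO (0.56, adjusted p = 0.0325). The dimmer probe had the other sign in both (0.35 and -0.10) and was not called without a block (limma adjusted p of 0.262 and 0.726). In PRDM14 against J1 the 2 probes also parted, the brighter at 0.47 and the dimmer at -0.25, neither called.

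Ehmt2 was lower in Dnmt1_KO, and for Ehmt1 the answer depended on the probe. The Ehmt2 probe (mm9 chromosome 17, 35050931 to 35050990, plus strand) was at 6.26 and 6.27 in J1, 6.50 and 6.48 in PRDM14, 6.31 and 6.18 in PRDM14_DNMT3B, 6.55 and 6.50 in Dnmt3b_KO, 5.79 in Dnmt1_KO and 6.21 in TKO. Dnmt1_KO was the lowest array, and the PRDM14 and Dnmt3b_KO arrays lay above all others. Ehmt2 fell by 0.475 in Dnmt1_KO (SE 0.10, 1.39-fold, limma adjusted p = 0.0217), was -0.47 within slide 1, and fell by 0.50 with slide as a block (adjusted p = 0.0314). The difference shrank to -0.13 with quantile normalization (adjusted p = 0.377) and to -0.12 in the deposited table (adjusted p = 0.427). Without J1 replicate 1 or 2 the adjusted p was 0.0569 and 0.0656. Quantile normalization and the deposited table called Ehmt2 higher than J1 in PRDM14 (0.285, adjusted p = 0.0353, and 0.263, adjusted p = 0.0449) and in Dnmt3b_KO (0.37, adjusted p = 0.0263, and 0.35, adjusted p = 0.0306). A replicate block called the same 2 differences (adjusted p of 0.0462 and 0.047), and normexp background correction the one in Dnmt3b_KO (0.30, adjusted p = 0.0334).

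The 2 Ehmt1 probes lie on mm9 chromosome 2, the brighter at 24646395 to 24646454 and the dimmer at 24646765 to 24646824, both on the minus strand. The brighter probe was at 4.55 and 5.19 in J1, 5.26 and 5.66 in PRDM14, 4.29 and 4.72 in PRDM14_DNMT3B, 4.50 and 5.03 in Dnmt3b_KO, 4.29 in Dnmt1_KO and 4.49 in TKO. Replicate 1 lay below replicate 2 in each of the 4 groups, with differences of -0.40 to -0.63, and no comparison was called. With the filter set to probes above background on all arrays, PRDM14_DNMT3B against PRDM14 passed (adjusted p = 0.0495). With slide as a block the brighter probe fell by 0.36 in PRDM14_DNMT3B against J1 (adjusted p = 0.0352). With the replicate number as a block this difference passed too (limma adjusted p = 0.0231). The brighter probe was then higher in PRDM14 than in J1 (0.59, adjusted p = 0.00525) and than in Dnmt3b_KO (0.69, adjusted p = 0.00365). It was lower in PRDM14_DNMT3B than in PRDM14 (-0.955, adjusted p = 0.00396). These values for PRDM14 rest on pairing arrays by replicate number, which no label states, and its arrays shared no slide with other groups.

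The dimmer Ehmt1 probe had tight replicates, with a widest gap of 0.135. It was at 3.34 and 3.45 in J1, 2.75 and 2.89 in PRDM14, 2.66 and 2.77 in PRDM14_DNMT3B, 3.11 and 3.23 in Dnmt3b_KO, 2.75 in Dnmt1_KO and 2.97 in TKO. The J1 arrays were above all others. In the fit over 33100 probes it fell by 0.57 in PRDM14 (SE 0.10, limma adjusted p = 0.00815), fell by 0.68 in PRDM14_DNMT3B (SE 0.10, adjusted p = 0.00426) and fell by 0.65 in Dnmt1_KO (SE 0.13, adjusted p = 0.0178). The brighter probe in PRDM14 was 0.59 above J1 (SE 0.31, adjusted p = 0.185 in the gene fit without a block), on the other side of 0. In PRDM14 against Dnmt3b_KO the dimmer probe was called lower (-0.35, SE 0.10, limma adjusted p = 0.048). There the brighter probe was 0.69 higher (adjusted p = 0.135 in the gene fit without a block).

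Setdb1, the writer that works with Trim28, was called in no comparison. Its probe (mm9 chromosome 3, 95127544 to 95127603, minus strand) was at 1.52 and 1.62 in J1, 1.42 and 1.70 in PRDM14, 1.77 and 1.88 in PRDM14_DNMT3B, 1.66 and 1.81 in Dnmt3b_KO, 1.34 in Dnmt1_KO and 1.44 in TKO. All neighbouring group means lay closer than the widest replicate gap of 0.28. In PRDM14_DNMT3B the difference from J1 was 0.26 (SE 0.13, limma adjusted p = 0.173), and 0.25 and 0.26 within slides 1 and 2. With slide as a block its adjusted p was 0.0356, and with a replicate block 0.0468.

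Trim28 was called lower in Dnmt1_KO and in no other comparison. The probe (mm9 chromosome 7, 13615914 to 13616069, plus strand) was at 7.002 and 6.87 in J1, 6.85 and 6.93 in PRDM14, 6.86 and 6.90 in PRDM14_DNMT3B, 6.78 and 6.77 in Dnmt3b_KO, 6.40 in Dnmt1_KO and 6.58 in TKO. Dnmt1_KO and TKO were below all other arrays, and the steps from Dnmt3b_KO to TKO and from TKO to Dnmt1_KO exceeded the widest replicate gap of 0.13. Trim28 fell by 0.53 in Dnmt1_KO (SE 0.10, 1.45-fold, limma adjusted p = 0.0168), and the difference was -0.60 within slide 1. In TKO it was -0.36 (adjusted p = 0.052). The Dnmt1_KO difference shrank to -0.21 with quantile normalization (adjusted p = 0.15), and without J1 replicate 1 it was -0.47 (adjusted p = 0.0502).

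By its brighter probe Zfp57 had the widest range of group means of the 10 genes, 1.32, and its 2 neighbouring probes differed. The brighter probe (mm9 chromosome 17, 37147440 to 37147499, plus strand) was at 0.63 and 0.59 in J1, 0.90 and 0.64 in PRDM14, 1.03 and 0.82 in PRDM14_DNMT3B, 0.24 and 0.14 in Dnmt3b_KO, -0.40 in Dnmt1_KO and 0.39 in TKO. The Dnmt1_KO array was lowest, and no Dnmt3b_KO array overlapped J1, PRDM14 or PRDM14_DNMT3B. Zfp57 fell by 1.01 in Dnmt1_KO (SE 0.15, 2.01-fold, limma adjusted p = 0.00778), was -1.03 within slide 1, and was called under all 15 alternatives run. It rose by 0.58 in PRDM14 against Dnmt3b_KO (SE 0.13, adjusted p = 0.0161). With slide as a block it also passed in Dnmt3b_KO (-0.42, adjusted p = 0.0357) and in PRDM14_DNMT3B (0.32, adjusted p = 0.039) against J1, and so it did with a replicate block (adjusted p of 0.023 and 0.0308).

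The dimmer Zfp57 probe (37147515 to 37147574) was at -0.02 and 0.04 in J1, -0.83 and -0.56 in PRDM14, -0.01 and 0.01 in PRDM14_DNMT3B, 0.06 and -0.29 in Dnmt3b_KO, -0.63 in Dnmt1_KO and -0.21 in TKO. Here PRDM14, not Dnmt1_KO alone, was low. The probe fell by 0.71 in PRDM14 against J1 (SE 0.15, limma adjusted p = 0.0144), rose by 0.70 in PRDM14_DNMT3B against PRDM14 (adjusted p = 0.029) and fell by 0.58 in PRDM14 against Dnmt3b_KO (adjusted p = 0.0308), where the brighter probe was called higher. Averaged over both probes, this last difference was -0.002 (adjusted p = 0.992). In Dnmt1_KO the dimmer probe was at -0.64 against J1 (adjusted p = 0.053).

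The 3 HP1 genes differed from each other. Cbx1 was lower than J1 in all 5 other groups, Cbx5 was higher in both lines labelled as expressing Prdm14, and Cbx3 was lower in Dnmt1_KO. The brighter Cbx1 probe (mm9 chromosome 11, 96665022 to 96665081, plus strand) was at 0.88 and 0.86 in J1, 0.59 and 0.59 in PRDM14, -0.29 and -0.22 in PRDM14_DNMT3B, 0.23 and 0.17 in Dnmt3b_KO, -0.001 in Dnmt1_KO and -0.22 in TKO. The 2 arrays of a group lay within 0.07 of each other, no replicated group overlapped another, and every step between neighbouring group means exceeded that gap other than the one from TKO to PRDM14_DNMT3B.

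Cbx1 fell by 1.13 in PRDM14_DNMT3B (SE 0.08, 2.19-fold, limma adjusted p = 0.000219), fell by 1.09 in TKO (SE 0.09, adjusted p = 0.0012), fell by 0.87 in Dnmt1_KO (SE 0.09, adjusted p = 0.00255) and fell by 0.67 in Dnmt3b_KO (SE 0.08, adjusted p = 0.00391). These 4 calls held under all 15 or 16 alternatives run for each, and within slide 1 the values were -1.18, -1.10, -0.89 and -0.66. In PRDM14 it fell by 0.28 (SE 0.08, adjusted p = 0.0323), a call that was lost without any 1 array of the 4 replicated groups (adjusted p of 0.0534 to 0.12). In Dnmt1_KO the other genes of chromosome 11 lay the other way, with a median 0.195 above that of the other autosomes.

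The dimmer Cbx1 probe (mm9 chromosome 11, 96669893 to 96669952) gave another order of the groups. It was at -0.81 and -0.61 in J1, -1.99 and -1.79 in PRDM14, -1.20 and -1.45 in PRDM14_DNMT3B, -1.37 and -1.35 in Dnmt3b_KO, -1.08 in Dnmt1_KO and -1.39 in TKO. J1 was again above every other array, but PRDM14 was lowest. This probe fell by 1.18 in PRDM14 against J1 (SE 0.13, limma adjusted p = 0.00147) and was called lower in PRDM14_DNMT3B, Dnmt3b_KO and TKO, while Dnmt1_KO was at -0.37 (adjusted p = 0.154).

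The 2 Cbx1 probes were called in opposite directions in both comparisons without J1. In PRDM14_DNMT3B against PRDM14 the brighter fell by 0.85 (SE 0.08, limma adjusted p = 0.00194) and the dimmer rose by 0.56 (SE 0.13, adjusted p = 0.0386), and their mean was -0.14 (adjusted p = 0.287). In PRDM14 against Dnmt3b_KO the brighter rose by 0.39 (adjusted p = 0.011) and the dimmer fell by 0.53 (adjusted p = 0.029), with a mean of -0.07 (adjusted p = 0.587). The brighter probe is listed on the array under a full-length cDNA clone and the dimmer under the RefSeq transcript. No mm9 gene annotation was used here, so exon, intron and UTR positions of the probes are not given.

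**Figure D3:**
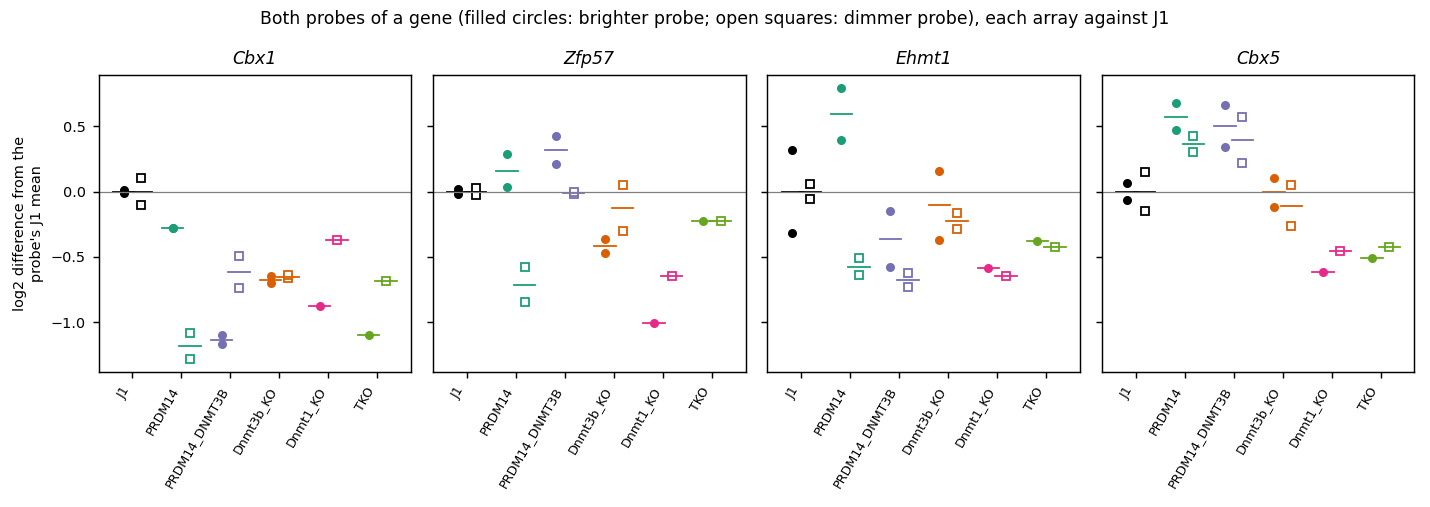
Level of each array relative to the probe's own J1 mean (y axis, log2) in the 6 groups (x axis), with filled circles for the brighter and open squares for the dimmer probe of Cbx1, Zfp57, Ehmt1 and Cbx5, and lines for group means. In PRDM14 the probes of Cbx1 part (-0.28 and -1.18), as do those of Zfp57 (0.16 and -0.71) and Ehmt1 (0.59 and -0.57), while both Cbx5 probes lie above 0.

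Cbx3 was measured by 2 probes on mm9 chromosome 6 (plus strand), the brighter at 51433585 to 51433644 and the dimmer at 51431757 to 51431816. The brighter was at 6.44 and 6.52 in J1, 6.05 and 6.33 in PRDM14, 6.12 and 6.11 in PRDM14_DNMT3B, 6.09 and 6.12 in Dnmt3b_KO, 5.97 in Dnmt1_KO and 6.10 in TKO. Both J1 arrays were above every other array. Cbx3 fell by 0.51 in Dnmt1_KO (SE 0.14, 1.42-fold, limma adjusted p = 0.0441), and with slide as a block also in PRDM14_DNMT3B (-0.36, adjusted p = 0.0202), Dnmt3b_KO (-0.37, adjusted p = 0.0327) and TKO (-0.36, adjusted p = 0.0466). With a replicate block the differences in PRDM14_DNMT3B and Dnmt3b_KO passed too (adjusted p of 0.0355 and 0.0472). The Dnmt1_KO difference shrank to -0.18 with quantile normalization (adjusted p = 0.399), and without 1 array of J1, PRDM14_DNMT3B or Dnmt3b_KO the adjusted p was 0.0745 to 0.122.

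The dimmer Cbx3 probe moved the same way. It was at 6.02 and 5.79 in J1, 5.86 and 5.597 in PRDM14, 5.56 and 5.42 in PRDM14_DNMT3B, 5.33 and 5.27 in Dnmt3b_KO, 5.10 in Dnmt1_KO and 5.30 in TKO. The J1 and PRDM14 arrays overlapped, and the others were lower. The probe fell by 0.60 in Dnmt3b_KO (SE 0.14, limma adjusted p = 0.0339), fell by 0.81 in Dnmt1_KO (SE 0.17, adjusted p = 0.0212) and fell by 0.60 in TKO (SE 0.17, adjusted p = 0.0484).

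The brighter Cbx5 probe (mm9 chromosome 15, 103027779 to 103027838, minus strand) was at 3.11 and 2.99 in J1, 3.73 and 3.52 in PRDM14, 3.71 and 3.39 in PRDM14_DNMT3B, 3.15 and 2.93 in Dnmt3b_KO, 2.44 in Dnmt1_KO and 2.54 in TKO. The groups fell into 3 levels, with PRDM14 and PRDM14_DNMT3B above J1 and Dnmt3b_KO, and Dnmt1_KO and TKO below them, and both steps between levels (0.50 each) exceeded the widest replicate gap of 0.32. Cbx5 rose by 0.57 in PRDM14 (SE 0.15, 1.49-fold, limma adjusted p = 0.0305) and by 0.50 in PRDM14_DNMT3B (SE 0.15, 1.41-fold, adjusted p = 0.0476) against J1, and by 0.58 in PRDM14 against Dnmt3b_KO (SE 0.15, adjusted p = 0.0315).

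These 3 Cbx5 calls were near the threshold, and with quantile normalization the adjusted p was 0.0596, 0.0694 and 0.0721. The first was lost without any 1 array of J1 or PRDM14 (adjusted p of 0.0628 to 0.147), the second without 7 of the 8 arrays tried (adjusted p of 0.0616 to 0.187), and the last without any 1 array of PRDM14 or Dnmt3b_KO (adjusted p of 0.057 to 0.15). With slide as a block Cbx5 passed in PRDM14_DNMT3B (adjusted p = 0.0166), Dnmt1_KO (-0.72, adjusted p = 0.024) and TKO (-0.62, adjusted p = 0.0285). The dimmer probe (103029698 to 103029757) had the same sign as the brighter in these comparisons (0.36 in PRDM14, 0.39 in PRDM14_DNMT3B, -0.46 in Dnmt1_KO and -0.42 in TKO) but was not called in any without a block. With slide as a block it passed in PRDM14_DNMT3B (adjusted p = 0.0186).

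By probe, 5 of 16 were called in PRDM14 against J1 (38.1% of all probes), 4 in PRDM14_DNMT3B (38.4%), 3 in Dnmt3b_KO (19.5%), 7 in Dnmt1_KO (26.4%) and 3 in TKO (26.8%). In PRDM14_DNMT3B against PRDM14 3 of 16 were called (19.4%), and in PRDM14 against Dnmt3b_KO 6 of 16 (35.3%). Of the genes, 6 had 2 probes above background, which gives 42 pairs of probe calls over the 7 comparisons. Both probes were called the same way in 5, in opposite ways in 3, only 1 was called in 12 and neither in 22.

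DNA methylation in mouse cells sits mostly on CG dinucleotides, and it was not measured in these files. By their brighter probes, Cbx1 was called in every comparison and Zfp57 had the widest range. The promoters of both, and of a gene that rose in the Dnmt1-deficient arrays, are shown for the CG they hold. They are the 250 bases before the start site in the RefSeq table of GRCm38.p6, 5′ to 3′ on the gene's strand, with CG (the same letters on both strands) in capitals. Cbx1 is at chr11:96788885-96789134 (plus strand), Zfp57 at chr17:37002275-37002524 (plus strand), the richest in CG of its 3 listed starts, and Tuba3b, a testis tubulin gene described below, at chr6:145615713-145615962 (plus strand).
Cbx1: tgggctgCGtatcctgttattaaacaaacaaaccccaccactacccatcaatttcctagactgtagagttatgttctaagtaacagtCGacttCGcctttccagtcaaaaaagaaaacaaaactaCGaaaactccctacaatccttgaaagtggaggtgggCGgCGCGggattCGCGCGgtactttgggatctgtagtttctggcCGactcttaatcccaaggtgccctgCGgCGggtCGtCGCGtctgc
Zfp57: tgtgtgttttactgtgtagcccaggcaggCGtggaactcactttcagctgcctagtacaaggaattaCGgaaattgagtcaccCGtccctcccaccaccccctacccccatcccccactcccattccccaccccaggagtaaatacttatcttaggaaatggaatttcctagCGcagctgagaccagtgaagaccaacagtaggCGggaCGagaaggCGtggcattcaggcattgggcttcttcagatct
Tuba3b: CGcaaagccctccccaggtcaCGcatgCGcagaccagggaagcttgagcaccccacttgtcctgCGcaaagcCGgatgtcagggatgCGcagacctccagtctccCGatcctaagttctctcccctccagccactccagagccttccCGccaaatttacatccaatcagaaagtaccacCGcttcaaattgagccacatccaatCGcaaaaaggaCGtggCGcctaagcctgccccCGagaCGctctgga
The Cbx1 window holds 16 CG, the Zfp57 window 7 and the Tuba3b window 14.

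All 10 genes matched the promoter table, with 16 start sites. Of the start sites, 14 held more than 6 CG, the median over all 32851 promoters of the table, of which 92.1% hold at least 1. The other 2 are starts of Zfp57, with 6 and 3 CG, and the remaining start, with 7, is matched or passed by 46.3% of all promoters. The richest were a start of Ehmt2 with 36 CG, which 2.58% of promoters reach, and the 2 starts of Cbx3 with 29 and 31. Cbx1, which was lower in every group than in J1, held 16, a number reached by 25.4% of promoters.

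Of 34 other genes of the H3K9 pathway, partners and readers of the mark, 32 were tested. In PRDM14 against Dnmt3b_KO 13 of them were not called, and in the other comparisons 16 to 30. In PRDM14 against J1, 9 of 32 rose and 5 fell, where 20.8% of all genes were called higher and 18.8% lower, with a median difference of 0.11 beside -0.03 for all genes. Mphosph8, the HUSH subunit that binds trimethylated H3K9, rose by 1.27, Setdb2, a relative of Setdb1, by 1.22 and Cdyl, a chromodomain protein, by 1.14, while Pphln1, the HUSH subunit periphilin, fell by 2.49, Trim33 fell by 0.97 and Tasor2 fell by 0.85. Pphln1 was at 2.28 and 2.71 in J1, -0.33 and 0.34 in PRDM14 and -0.24 and -0.02 in PRDM14_DNMT3B, with no overlap, and at 1.92 and 2.35 in Dnmt3b_KO, 2.53 in Dnmt1_KO and 1.75 in TKO.

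In PRDM14_DNMT3B against J1, 9 of 32 rose and 7 fell, beside 19.5% and 19.7% of all genes. L3mbtl2, a reader in a Polycomb-like complex with Ehmt2, rose by 1.20, Setdb2 by 1.16 and Mphosph8 by 1.15, while Pphln1 fell by 2.62, Kmt5b, the H4K20 methyltransferase that follows HP1, fell by 0.87 and Trim33 fell by 0.59. In Dnmt3b_KO against J1, 4 of 32 rose and 4 fell, beside 10.8% and 10.1% of all genes, led by Mphosph8 (1.03), Setdb2 (0.80) and L3mbtl2 (0.45) on the higher side and Kmt5b (-0.81), Smarcad1 (-0.69) and Atf7ip2 (-0.51) on the lower. Mphosph8 was at 2.85 and 3.00 in J1 and between 3.28 and 4.25 on the other 8 arrays, and the difference passed in all groups other than Dnmt1_KO.

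In Dnmt1_KO against J1, 2 of 32 rose and 9 fell, beside 13.1% and 15% of all genes, and the median was -0.28 beside -0.14. The genes that rose were Atf7ip, the Setdb1 cofactor, by 0.66 and Zfp809, which leads Trim28 to retroviruses, by 0.48. The largest decreases were Cdyl2 (-2.03), Kmt5b (-0.81) and Morc3 (-0.79). In TKO 5 rose and 6 fell, beside 13.9% and 14.5% of all genes. L3mbtl2 (0.92), Setdb2 (0.85) and Zfp809 (0.79) rose the most, and the decreases were led by Cdyl2 (-1.88), Atrx (-0.96) and Kmt5b (-0.73). Cdyl2 was at 0.95 and 1.40 in J1 and at -0.85 in Dnmt1_KO and -0.70 in TKO, below the other 8 arrays, which ran from 0.77 to 1.93.

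In PRDM14_DNMT3B against PRDM14, Tasor2 rose by 0.42, Kmt5b fell by 0.69 and 30 of 32 were not called, where 20.7% of all genes were called. In PRDM14 against Dnmt3b_KO 14 of 32 rose and 5 fell, beside 21.5% and 15.7% of all genes. The increases were led by Cdyl (1.07), Smarcad1 (1.03) and Atrx (0.68), and the decreases by Pphln1 (-2.13), Tasor2 (-1.19) and Trim33 (-0.80).

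Of 11 H3K9 demethylases, which remove the mark, 10 were tested, and Kdm4d was not above background in any group. Against J1, Kdm3b rose by 0.66 and Phf2 was called lower in PRDM14, 2 of 10 where 39.6% of all genes were called. Phf2 was at -3.32 and -3.24 in J1 and at -4.24 and -4.81 in PRDM14, where 1 of its 2 arrays was well above background, so the size of that decrease is not given. In PRDM14_DNMT3B 4 of 10 rose (19.5% of all genes), led by Kdm7a (1.23), Kdm4b (0.93) and Phf8 (0.62), and Phf2, not well above background there, was at least 1.73-fold lower. Kdm4b rose by 0.68 in Dnmt3b_KO and was the only call of 10 (20.9% of all genes). In Dnmt1_KO 4 of 10 fell (15% of all genes) and none rose (13.1%), Kdm3a (-0.99), Kdm4a (-0.79) and Kdm3b (-0.77) the most. In TKO Kdm3b (-0.82), Jmjd1c (-0.75) and Kdm4a (-0.67) fell, 3 of 10 beside 14.5% of all genes. Kdm7a (1.41), Kdm4b (0.87) and Phf8 (0.67) rose in PRDM14_DNMT3B against PRDM14, 3 of 10 beside 9.81%. In PRDM14 against Dnmt3b_KO Kdm3b (0.89) and Kdm3a (0.84) rose, Kdm4b fell by 0.62 and Phf2, with its dim PRDM14 array, was called lower, 4 of 10 where 37.2% of all genes were called.

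Of the genes that Ehmt1 and Ehmt2 are known to silence in ES cells, Tuba3a, Tuba3b and Wfdc15a rose in both arrays without Dnmt1. The list was chosen with results of these arrays known and is not independent evidence. Of 11 listed, 9 were tested. The 6 Magea genes among them passed the filter on dim probes only through Dnmt1_KO or TKO, the arrays where they were high, so a count of calls over the 9 is not given. Tuba3b was at -1.20 and -0.84 in J1, -0.72 and -0.59 in PRDM14, -1.82 and -2.18 in PRDM14_DNMT3B, -1.74 and -1.49 in Dnmt3b_KO, 1.97 in Dnmt1_KO and 3.20 in TKO. It rose by 2.99 in Dnmt1_KO (SE 0.23, limma adjusted p = 0.000891) and by 4.22 in TKO (SE 0.23, adjusted p = 0.000378). Tuba3a and Tuba3b are near-identical copies whose probes may share signal.

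Wfdc15a, a gene of the whey acidic protein family, was at -2.23 and -2.84 in J1, 0.52 in Dnmt1_KO and 1.67 in TKO, a rise of 3.05 (SE 0.51, limma adjusted p = 0.0104) and 4.21 (SE 0.51, adjusted p = 0.00338). Tuba3a rose by 2.34 (adjusted p = 0.00028) and 2.75 (adjusted p = 0.000242). The Magea genes, cancer-testis antigens on chromosome X with near-identical copies, were not above background in J1. They passed the filter only through Dnmt1_KO or TKO, so their height there is not a result and its size is not given. Magea6, above background in TKO alone, was called in neither (adjusted p of 0.771 and 0.498).

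In the other groups genes of the list were called in both directions. In PRDM14 against J1 Tuba3a rose by 0.74 (limma adjusted p = 0.00201), and Tuba3b and Wfdc15a were not called. The Magea genes were not above background in either group and could not show a difference. In PRDM14_DNMT3B Tuba3a fell by 1.11, Tuba3b fell by 0.98 and Wfdc15a was at least 2.77-fold lower. In Dnmt3b_KO Tuba3a fell by 0.60 and Wfdc15a was at least 3.37-fold lower. Tuba3a fell by 1.85 in PRDM14_DNMT3B against PRDM14 and Tuba3b fell by 1.34, and both were higher in PRDM14 than in Dnmt3b_KO, by 1.34 and 0.95.

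**Figure D4:**
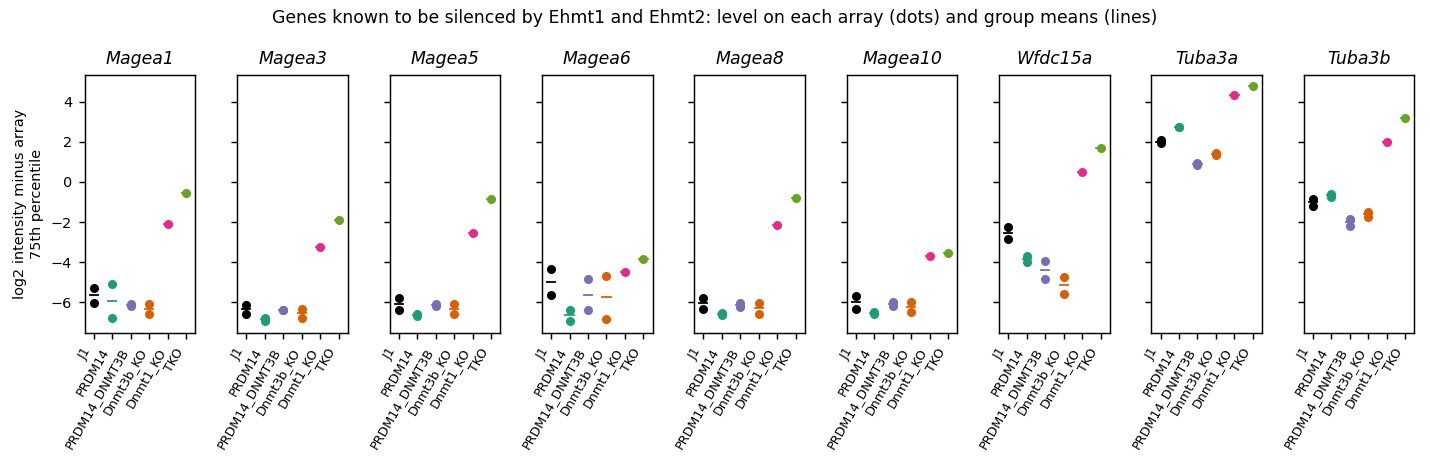
Level of the 9 tested genes known to be silenced by Ehmt1 and Ehmt2 (y axis, log2 intensity minus the array's 75th percentile) in the 6 groups (x axis), with dots for arrays and lines for group means. Dnmt1_KO and TKO lie above all other arrays for Tuba3a, Wfdc15a and Tuba3b (for Tuba3b 1.97 and 3.20 against -0.59 at most elsewhere). The Magea genes were kept by the filter only through these arrays, so their height there is not a result.

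In TKO, where Tuba3a, Tuba3b and Wfdc15a rose, the brighter probe of Ehmt1 was at -0.38 (limma adjusted p = 0.515) and Ehmt2 at -0.06 (adjusted p = 0.707) against J1. The dimmer Ehmt1 probe was at -0.42 there, not called without a block but passing with slide as a block. In Dnmt1_KO, where the same 3 genes rose, Ehmt2 (-0.475) and the dimmer Ehmt1 probe (-0.65) were called lower. The brighter Ehmt1 probe was at -0.58 in Dnmt1_KO and was not called. Any relation of these genes to the levels of Ehmt1 and Ehmt2 was not tested.

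For Zfp57, the gene with the widest range, the genes with the pattern most similar to its brighter probe were listed. The dimmer probe, with a range of 0.711 and PRDM14 lowest, was not compared. Over the 10 arrays and 18242 genes above background on all of them, the 5 most alike by Pearson's r were the transcript ENSMUST00000133986 (0.9766), Ptbp1, a splicing repressor (0.9732), Sap30, a subunit of the Sin3 histone deacetylase complex (0.9638), Grtp1 (0.9561) and Papola, a poly(A) polymerase (0.9527). These 5 were picked for likeness, the 10 arrays share slides and lines, and no test was made. Sap30 was at 2.64 and 2.70 in J1, 3.23 and 3.24 in PRDM14, 3.44 and 3.25 in PRDM14_DNMT3B, 2.30 and 2.35 in Dnmt3b_KO, 1.495 in Dnmt1_KO and 2.55 in TKO.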

How the data were processed

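RNA from 6 lines was hybridised to 10 one-colour arrays. Per the file headers, the scanner files hold 1 background-subtracted intensity per spot from Agilent Feature Extraction 10.7.3.1, not normalized between arrays, for probes placed on mm9. Per the submitters' processing notes limma was also used (no version is given). The authors' deposited table holds log2 values (r with log2 intensity of at least 0.9993, median 4.243 in each column) whose scaling is not stated, and it served as an alternative.

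From each log2 intensity the array's 75th percentile was subtracted. Control and outlier spots were left out, repeat spots averaged, and a probe was kept where all arrays of some group had it well above background. A gene was represented by its probe of highest mean. No spot was saturated, 50.03% to 56.03% of spots per array were well above background, and the number of arrays limits the precision. Gene names came from the files and from RefSeq accessions, which matched 20869 of 37932 names.

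All arrays entered 1 limma 3.58.1 fit in R 4.3.3 without covariates, with 4 residual degrees of freedom, so Dnmt1_KO and TKO were assumed to vary like the others. Adjusted p-values are Benjamini-Hochberg over all genes, or over all probes where a second probe is given. Where a probe was above background in no array of 1 group, the fold is a bound ("at least") against the higher of its signal and the lowest signal well above background. The fit was tested on simulated data.

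Slide 1 held the first arrays of J1, PRDM14_DNMT3B and Dnmt3b_KO with Dnmt1_KO and TKO, slide 2 the second arrays of those 3 groups, and each PRDM14 array had a slide of its own. On slide 1 the scan pass of Dnmt1_KO and TKO was not that of J1, and on slide 2 J1 had a scan pass of its own. Values within slides and with slide as a block are therefore given for comparisons other than those with PRDM14. The slide block left 2 residual degrees of freedom and did not take out the scan pass.

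The genes and lists were chosen with earlier results of these data known. All 10 genes are named. From each H3K9 list, up to 3 called genes with the largest increase and 3 with the largest decrease per comparison are named, and for the gene with the widest range the 5 most correlated genes. Alternatives were quantile normalization, normexp background correction with an offset of 50, the deposited table, other filters, the mean over probes, blocks, and leaving out each array.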

Additional observations from a re-analysis of the deposited data

How the results depend on the processing

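No called difference changed sign, other than Cbx1 (-0.068) and Zfp57 (-0.002) in PRDM14 against Dnmt3b_KO with the mean over the probes of a gene, where their probes were called in opposite directions. Of 244 recomputed values of called genes, 174 kept their call, 68 lost it and these 2 reversed, and of 826 of uncalled genes 55 became called. The counts of called genes moved more. Without a filter on dim probes (more genes tested) they were 0 in PRDM14, 1 in PRDM14_DNMT3B and 2 in Dnmt1_KO against J1 (22.3%, 20.9% and 11.2% of all genes). With quantile normalization Dnmt3b_KO and Dnmt1_KO each had 2 (21.2% and 25.5% of all genes), and so they had with the deposited table (21.1% and 25.6%). With normexp Dnmt3b_KO and TKO each had 2 (21.9% and 23.9%). With the filter set to all 10 arrays there were 3 in Dnmt3b_KO, 2 in TKO and 2 in PRDM14_DNMT3B against PRDM14 (29.2%, 34.2% and 28%). With the mean over probes there were 2 in Dnmt3b_KO and 4 in TKO (21% and 29.3% of all genes). With slide as a block there were 6 in PRDM14_DNMT3B, 3 in Dnmt3b_KO and 3 in TKO (44.4%, 26.5% and 30.9%). Leaving out each array in turn gave 0 to 2 in PRDM14, 1 to 2 in PRDM14_DNMT3B, 2 to 5 in Dnmt1_KO and 1 to 2 in TKO against J1, and 0 to 3 in PRDM14 against Dnmt3b_KO. Leaving out an array also lowered the share of all genes called in each of these comparisons. The cause was not tested.

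Replicate numbers are shared by 4 groups and coincide with slides for J1, PRDM14_DNMT3B and Dnmt3b_KO, but no label says that they pair arrays across groups. Replicate differences correlated at 0.261 to 0.507 between groups. A replicate block on their 8 arrays gave 4 calls in PRDM14, 7 in PRDM14_DNMT3B and 4 in Dnmt3b_KO against J1. The shares of all genes called were 47.9%, 46.2% and 29.9%. It gave 3 calls in PRDM14_DNMT3B against PRDM14 (29.3% of all genes) and 5 in PRDM14 against Dnmt3b_KO (45.2%). No call of the 10 genes was lost under it. The 10 arrays and the missing replicates of Dnmt1_KO and TKO limit all values. Dim probes, such as that of Wfdc15a in PRDM14_DNMT3B and Dnmt3b_KO, give bounds only.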
